A study of Mus musculus with 4 samples.

Results

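The genes described here are those that start in the first 20 Mb of mouse chromosome 14 (GRCm38) and that held 10 or more total exon reads in at least 2 of the 4 testis libraries of the series. This rule took 115 of the 163 rows listed in the window, against 15909 of 25683 rows that met the same read minimum in the whole table. The testis libraries comprised 2 labelled as *Parp1* knockout and 2 labelled as wild type, called control here. The knockout allele carries a neo-stop cassette in an early exon of *Parp1*, was made in a 129S line (129S-Parp1tm1Zqw/J) and was moved by repeated crossing to C57Bl/J. The strain of the control samples is not given in the sources used here. No treatment, age or litter is given, and nothing says whether the libraries of a genotype come from separate animals, so that p-values measure only the spread between these libraries.

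Copies and single-copy genes lie in this stretch. Next to the centromere there is a block of related predicted genes, most of them known only by a number, such as *Gm3182* and *Gm8362*, some of them nearly identical to each other. Farther along lie single-copy genes with textbook roles, among them the retinoic acid receptor *Rarb*, the thyroid hormone receptor *Thrb*, the DNA topoisomerase *Top2b*, the ribosomal protein gene *Rpl15* and the basement membrane gene *Nid2*. For genes with a nearly identical copy a sequenced fragment can fit several places. The authors' table gives both the total exon reads and the unique exon reads, which fitted 1 place only.

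How alike the copies are can be seen in coding exon 3 of 6 of them, from the GENCODE M21 annotation of GRCm38. Coding exons are counted here from the exon with the start codon. Each stretch is 132 bases long and is written 5′ to 3′ on the strand of the gene, with capitals where a base differs from *Gm5458*. *Gm3182* and *Gm5458* had more reads in knockout testis, and the other 4 had fewer.
Gm3182 (chr14:4483788-4483919, plus strand): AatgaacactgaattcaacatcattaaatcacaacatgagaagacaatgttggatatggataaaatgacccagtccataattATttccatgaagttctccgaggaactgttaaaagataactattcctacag
Gm5458 (chr14:19600404-19600535, minus strand): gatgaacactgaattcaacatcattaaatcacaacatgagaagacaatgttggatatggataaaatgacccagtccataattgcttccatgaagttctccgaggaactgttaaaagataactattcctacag
Gm8362 (chr14:6772240-6772371, minus strand): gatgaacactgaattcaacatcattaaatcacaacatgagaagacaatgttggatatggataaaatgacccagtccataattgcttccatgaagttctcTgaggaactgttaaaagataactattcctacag
Gm5797 (chr14:7330235-7330366, minus strand): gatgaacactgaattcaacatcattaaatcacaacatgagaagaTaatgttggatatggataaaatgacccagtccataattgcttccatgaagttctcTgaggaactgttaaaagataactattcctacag
Gm3460 (chr14:6620242-6620373, minus strand): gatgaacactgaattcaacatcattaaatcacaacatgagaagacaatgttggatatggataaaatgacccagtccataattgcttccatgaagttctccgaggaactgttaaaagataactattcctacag
Gm3029 (chr14:3933801-3933932, plus strand): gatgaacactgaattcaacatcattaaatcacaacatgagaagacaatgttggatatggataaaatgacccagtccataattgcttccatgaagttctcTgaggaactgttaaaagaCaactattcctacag
*Gm3460*, with fewer reads in knockout, was identical here to *Gm5458*, with more, and *Gm8362* differed from it at 1 base. Over the 609 bases of coding exons 1 to 4, which 26 of the 29 copies of this kind share in length, pairs of copies were 92.6% to 100% identical, with a median of 96.7%. Among 4 copies that were higher and 4 that were lower, the pairs with opposite directions were 96.1% to 99.8% identical. At 0 positions did the bases of the 4 higher copies separate from those of the 4 lower ones. The stretches shown were picked after the values were seen.

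A pair of start regions was about as alike. RefSeq promoters (GRCm38.p6, 250 bases before to 50 after the start of the gene) matched 81 of the 115 members and 51 of the 78 copies. They are shown for *Gm3012*, which was lower in knockout testis, and *Gm5458*, which was higher, with capitals at the 10 of 300 bases that differ (96.7% identity).
Gm3012 (chr14:3634256-3634555, plus strand): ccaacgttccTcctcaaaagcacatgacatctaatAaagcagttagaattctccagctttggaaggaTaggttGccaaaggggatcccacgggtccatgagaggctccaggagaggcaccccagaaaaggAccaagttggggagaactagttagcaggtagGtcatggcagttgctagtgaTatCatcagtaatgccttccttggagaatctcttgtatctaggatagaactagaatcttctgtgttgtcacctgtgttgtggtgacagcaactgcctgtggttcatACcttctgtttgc
Gm5458 (chr14:19602538-19602837, minus strand): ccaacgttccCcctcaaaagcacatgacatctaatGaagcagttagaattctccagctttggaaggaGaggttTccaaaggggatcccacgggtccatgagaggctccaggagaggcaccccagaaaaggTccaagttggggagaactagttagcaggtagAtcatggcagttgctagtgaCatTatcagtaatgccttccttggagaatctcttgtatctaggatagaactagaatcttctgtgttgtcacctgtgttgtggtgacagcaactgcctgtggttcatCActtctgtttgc
No motif was searched for in these windows.

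The libraries held 21821073 and 18103863 total exon reads in knockout testis and 20449210 and 23503503 in control testis. The headings of the table do not say which knockout library is which, so they are told apart by depth. In the control libraries 97.6% and 97.5% of all exon reads were unique. By title the knockout samples belong to a *Parg* line, whereas the genotype label and the study give *Parp1*. *Parp1* itself, on chromosome 1, had 24.1 and 22.1 CPM (counts scaled to library size, with TMM) in knockout testis and 86.4 and 86.0 CPM in control testis, a log2 fold change of -1.90 (SE 0.10, adjusted p = 0.0126, edgeR's quasi-likelihood test). Its call was lost without control replicate 1 (-1.89, adjusted p = 0.0708) and without control replicate 2 (-1.90, adjusted p = 0.058). *Parg*, which lies on chromosome 14 outside the window, had 37.5 and 46.3 CPM in knockout and 37.2 and 35.95 CPM in control. Markers of germ cells and of Leydig and Sertoli cells were present in every library, as testis would have. The summed markers of elongating spermatids were at 22440 CPM in the deeper knockout library and 9751 CPM in the other, against 16750 and 17250 CPM in control, and those of Leydig cells at 1056 and 2427 CPM against 1211 and 1545 CPM. Spermatogonia markers summed to 83.3 and 95.9 CPM in knockout and 97.2 and 99.7 CPM in control, those of spermatocytes to 997 and 968 against 998 and 948 CPM, of round spermatids to 1466 and 1191 against 1200.0 and 1094 CPM, and of Sertoli cells to 204 and 269 against 206 and 210.1 CPM. Peritubular markers stood at 45.0 and 66.6 against 52.8 and 82.1 CPM, macrophage markers at 13.6 and 24.8 against 13.4 and 19.2 CPM, red blood cell markers at 46.4 and 30.8 against 47.4 and 42.3 CPM, and adipose markers at 17.3 and 11.9 against 14.2 and 12.5 CPM. Epididymis markers, low in every library, summed to 0.0494 and 0.261 CPM in knockout and 1.89 and 1.86 CPM in control without overlap, with *Lcn5* at 0, and the 1 gene of that list that could be tested had an unadjusted p under 0.05. The spermatocyte and Leydig lists each held 1 such gene of 5 tested, and the remaining lists held none. The part of these differences in the results below was not tested. In bulk tissue, fewer cells of a type and less RNA per cell cannot be told apart.

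The question put to the data was which members differed between knockout and control testis. By edgeR's quasi-likelihood test, 114 of the 115 members could be tested, and 1 of them passed an adjusted p of 0.05, where p was adjusted over all 15834 genes tested. The background was 15 called genes, 0.0947% of all, with 0.0821% lower in knockout and 0.0126% higher. That member was *Gm8362* (ENSMUSG00000090404), a predicted gene on the minus strand from 6765962, which met the read minimum through the control libraries alone, where it is high. It held 2 and 4 reads in the knockout libraries and 133 and 119 in the control libraries, which is 0.0988 and 0.209 CPM in knockout against 6.45 and 5.03 CPM in control. It fell by 5.18 on the log2 scale, or 36.2-fold (SE 0.44, 95% interval -6.28 to -4.08, adjusted p = 0.0402, edgeR). The call was lost without control replicate 1 (adjusted p = 0.162), without control replicate 2 (0.0884) and with limma voom (0.0789), at fold changes of -4.99, -5.35 and -5.07. Over the alternatives that kept it, its adjusted p lay between 7.75e-23 and 0.162, and a filter of 10 counts in every library removed it.

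At an adjusted p of 0.1, 7 members were called against a background of 0.335%. Of these, 6 were lower in knockout (background 0.278%) and 1, *Gm3182*, was higher (background 0.0568%), and all 7 belong to the copies. DESeq2 called 16 members at 0.05 (8 higher, 8 lower) with 1.22% of all genes, and limma voom called 0 members with 0.0695%. The 16 members were also called by edgeR's likelihood ratio test, which called 24 in all, with 2.36% of all genes. The number of calls thus depended on the tool, and the description below uses a looser count that was chosen after these numbers were known: members with an unadjusted p under 0.05 in the edgeR fit, written as higher or lower. By that count, 45 of 114 members differed, 25 higher and 20 lower in knockout testis, or 39.5%, against 7.79% of all genes tested (3.57% higher, 4.23% lower). Without control replicate 1 it gave 15 higher and 9 lower members (21.1%, against 2.71% of all genes), and without control replicate 2 it gave 13 and 12 (21.9%, against 3.03%). The libraries of the genotypes did not overlap in 79 of 114 members (41 higher, 38 lower), or 69.3%, against 37.1% of all genes (17.9% higher, 19.2% lower). The window was itself chosen with earlier results of these data known, so that these shares describe it and are no independent test.

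The other 20 Mb windows of chromosome 14 held between 5.26% and 16.7% of genes with an unadjusted p under 0.05, and the window with 16.7% had 12 genes tested. The median size of the log2 fold change, without its sign, was 0.52 in the first window, 0.127 in the next and 0.141 over all genes tested. The median with its sign was 0.04 in the first window and 0.01 over all genes.

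**Figure D1:**
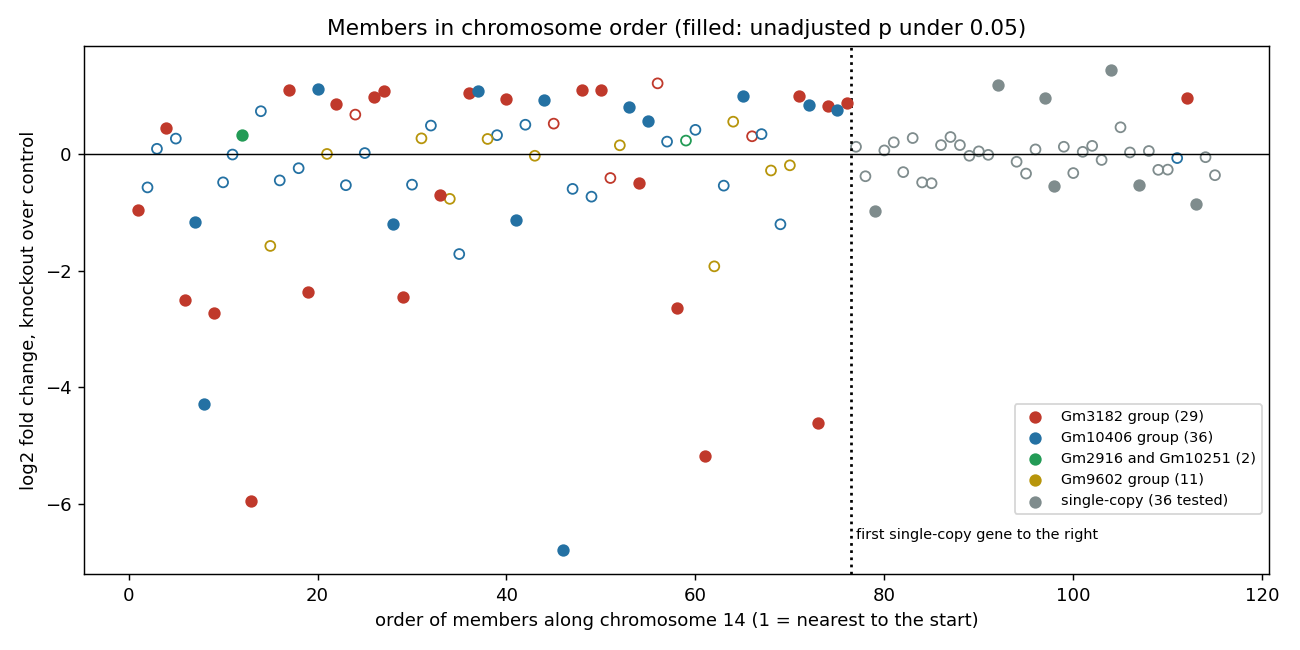
Log2 fold change of knockout over control (y axis) for the 114 members tested, in their order along chromosome 14 (x axis), coloured by sequence group, with filled points for an unadjusted p under 0.05. Left of the dotted line lie 76 copies, with fold changes from -5.96 to 1.22 apart from *Gm8237*, which had 0 reads in knockout and is drawn at its fitted value, and right of it the single-copy genes between -0.96 and 1.45, with 2 further copies near the far end.

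The members fell into copies and single-copy genes. A member was taken as a copy if at least 30% of the 31-base words of its transcripts occur in 1 other gene of the window, which held for 78 members. The share of words found in the most similar other gene ran from 39.4% to 100% among them, with a median of 81.3%. The other members are called single-copy, by the window alone: *Ube2e1* at 65.9% and *Thoc7* at 87.4% unique reads in control also had reads that fit another place. Of the 78 copies, 76 lie in an unbroken run from 3030002 to the start of *Gm10338* at 7580617, and 2, *Gm2237* and *Gm5458*, lie apart, at 19563800 and 19594139. Grouping by shared words, with a limit set after several were looked at, gave 29 copies in the group of *Gm3182*, 36 in that of *Gm10406*, 11 in that of *Gm9602* and a last pair, *Gm2916* and *Gm10251*. The groups alternate along the chromosome and are named by a leading gene, as the files annotate no function for them.

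Among the 78 copies, 22 were higher and 16 lower, or 48.7% in all. In the *Gm3182* group 13 were higher, 11 lower and 5 neither, while in the *Gm10406* group 8 were higher, 5 lower and 23 neither. Of the 11 copies of the *Gm9602* group none passed an unadjusted p of 0.05. Together they reached at most 19.3 CPM in a library, and their log2 fold changes lay between -1.92 and 0.56. The part of their low level in this was not tested. *Gm2916* was higher, at 32.8 and 34.9 CPM in knockout and 26.01 and 27.6 CPM in control, and its partner *Gm10251* overlapped between the genotypes. Of the 36 single-copy genes tested, 3 were higher and 4 lower, or 19.4%, where the share over all genes tested was 7.79%. Differences of the copies were also larger, with a median size of 0.75 on the log2 scale against 0.26 for the single-copy genes, where the median control level was 2.55 CPM for the copies and 19.6 CPM for the single-copy genes. The part of the lower level in this was not tested.

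*Gm3182*, *Gm5458* and *Gm8159*, the 3 copies with the most reads in knockout testis, were higher there than in control. Ranking by the knockout level favours copies that were higher. By mean control level *Gm21103*, a lower copy, came before *Gm8159* (32.5 against 30.8 CPM). *Gm3182* (ENSMUSG00000091148) had 102 and 85.1 CPM in knockout testis and 47.9 and 46.9 CPM in control testis, a log2 fold change of 0.98 (SE 0.12, adjusted p = 0.0858, edgeR). *Gm5458*, which lies outside the block, had 82.1 and 68.9 CPM in knockout and 40.9 and 36.7 CPM in control. *Gm8159* had 73.7 and 57.3 CPM in knockout against 29.4 and 32.2 CPM in control. For all 3, the lower knockout library stood well above the higher control library, and the knockout library with more reads was the higher one. *Gm3149* (52.2 and 42.9 CPM in knockout, 24.5 and 27.8 CPM in control), *Gm8279* (38.3 and 29.4 CPM against 17.5 and 15.0 CPM) and *Gm3453* (30.96 and 27.9 CPM against 15.2 and 12.3 CPM) showed the same order. The 13 higher copies of the *Gm3182* group lay between 1.37-fold and 2.16-fold above control, with a median of 1.97-fold. Per kb of exon, the highest level of a copy in knockout was that of *Gm5458*, at 75.7 CPM per kb against 38.9 in control, followed by *Gm3182* at 51.4 against 26.1. In the *Gm10406* group, *Gm10406* itself had 17.9 and 15.2 CPM in knockout and 8.93 and 7.56 CPM in control. *Gm3373* of that group had 14.9 CPM in both knockout libraries against 8.49 and 7.01 CPM in control. Its 8 higher copies lay between 1.48-fold and 2.19-fold above control.

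Among the lower copies, besides *Gm8362*, *Gm3029* was nearly absent from knockout testis, with 0.198 and 0 CPM, against 6.45 and 6.84 CPM in control. *Gm5797* had 0.0988 and 0.209 CPM in knockout and 4.03 and 3.68 CPM in control. *Gm3005*, of the *Gm10406* group, had 0.198 and 0 CPM in knockout and 2.38 and 1.82 CPM in control. Each of these copies was near 0 in both knockout libraries and clearly present in both control libraries. *Gm3460* was partly retained, with 1.23 and 1.88 CPM in knockout and 10.1 and 9.34 CPM in control, a log2 fold change of -2.64 (SE 0.27, adjusted p = 0.0659, edgeR). *Gm10413* had 2.77 and 1.88 CPM in knockout and 15.2 and 11.3 CPM in control, and *Gm3012* had 2.12 and 1.67 CPM against 14.3 and 10.9 CPM. *Gm21103*, the lower copy with the highest control level, had 25.9 and 20.3 CPM in knockout and 33.5 and 31.6 CPM in control. Its unadjusted p was 0.0185 (edgeR), and 95.1% and 93.6% of its reads in the control libraries were unique. *Gm3127*, at 0.247 and 0.104 CPM in knockout and 1.07 and 0.803 CPM in control, was low in every library. *Gm8237* had 0 reads in both knockout libraries and 0.728 and 0.591 CPM in control. Set against a floor of 3 counts over both knockout libraries, it was at least 8.61-fold lower, and this floor covers counting error only. The 11 lower copies of the *Gm3182* group lay between 1.41-fold and 62.1-fold below control, of which the 5 that met the read minimum through control alone (*Gm3029*, *Gm3127*, *Gm7876*, *Gm8362* and *Gm5797*) spanned 5.12-fold to 62.1-fold and the other 6 spanned 1.41-fold to 6.60-fold. Their median control level was 6.65 CPM, against 13.8 CPM for the 13 higher copies, and both sets were picked by their direction. Of the 20 lower members, 7, *Gm8362* among them, met the read minimum through the control libraries alone, so that their place among the members is tied to their direction.

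**Figure D2:**
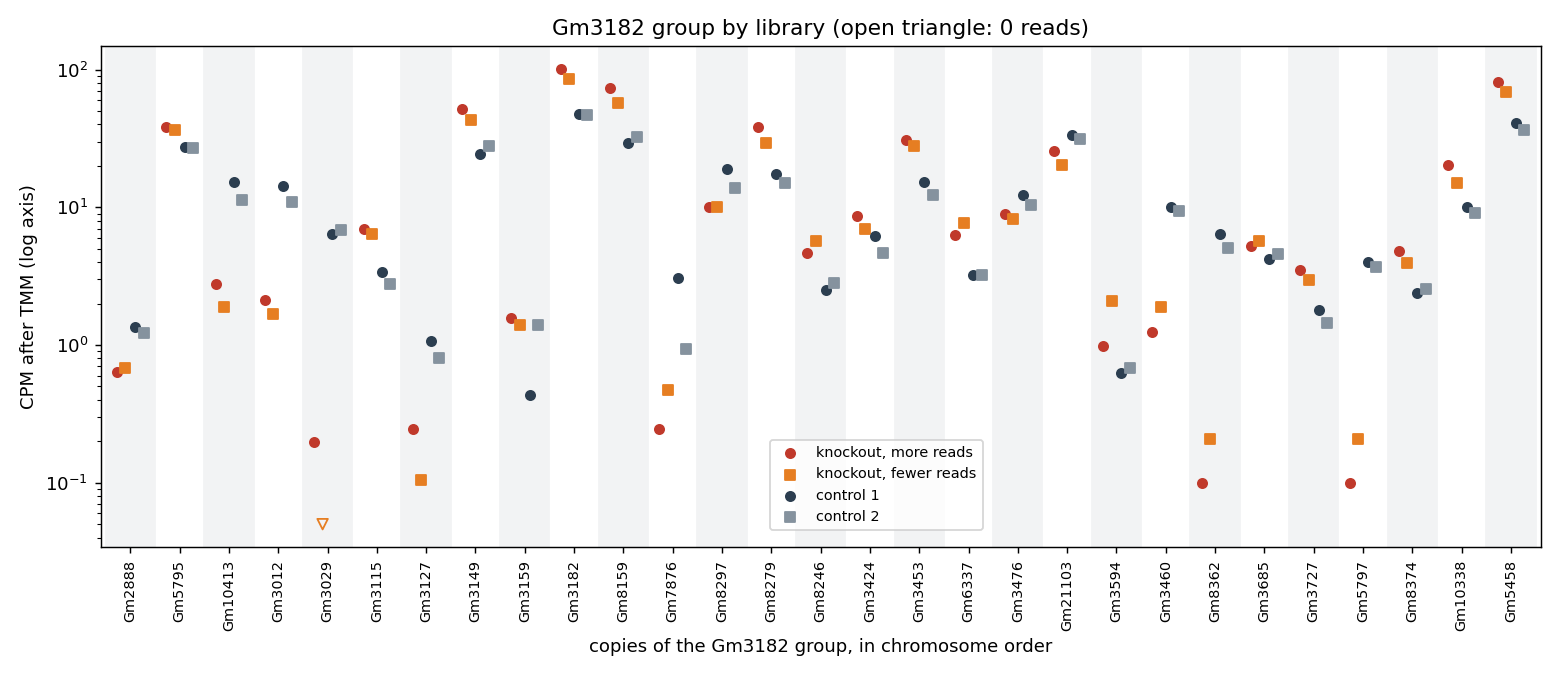
CPM after TMM (y axis, log scale) of the 29 copies of the *Gm3182* group (x axis, chromosome order) in each library, with the knockout libraries on the left of each gene and the control libraries on the right. *Gm3182*, *Gm8159* and *Gm5458* sit highest, with knockout above control, while *Gm3029*, *Gm8362* and *Gm5797* sit far below control in both knockout libraries.

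Summed over all 29 copies, the *Gm3182* group stood at 533 and 451 CPM in knockout testis and 365 and 337 CPM in control testis, a ratio of 1.403. *Gm3182*, *Gm5458* and *Gm8159* made up most of this rise, and *Gm3182* and *Gm8159* had only 0.572% and 7.61% unique reads in control. The 14 copies on the minus strand of the block, none of them among these, summed to 122 and 109 CPM in knockout. In control they summed to 113 and 101 CPM, which overlapped. The 13 higher copies together had 464 and 390 CPM in knockout against 226 and 220 CPM in control, and the 11 lower ones had 43.6 and 37.5 CPM against 115 and 95.3 CPM. The *Gm10406* group summed to 128 and 127 CPM in knockout and 104 and 84.5 CPM in control. The *Gm9602* group summed to 16.2 and 19.3 CPM in knockout and 19.3 and 15.4 CPM in control, which overlapped. Single-copy members summed to 1591 and 1456 CPM in knockout and 1520 and 1519 CPM in control, where the knockout libraries lay on both sides of control. The direction of the sums over higher and over lower copies is fixed by how these were picked.

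**Figure D3:**
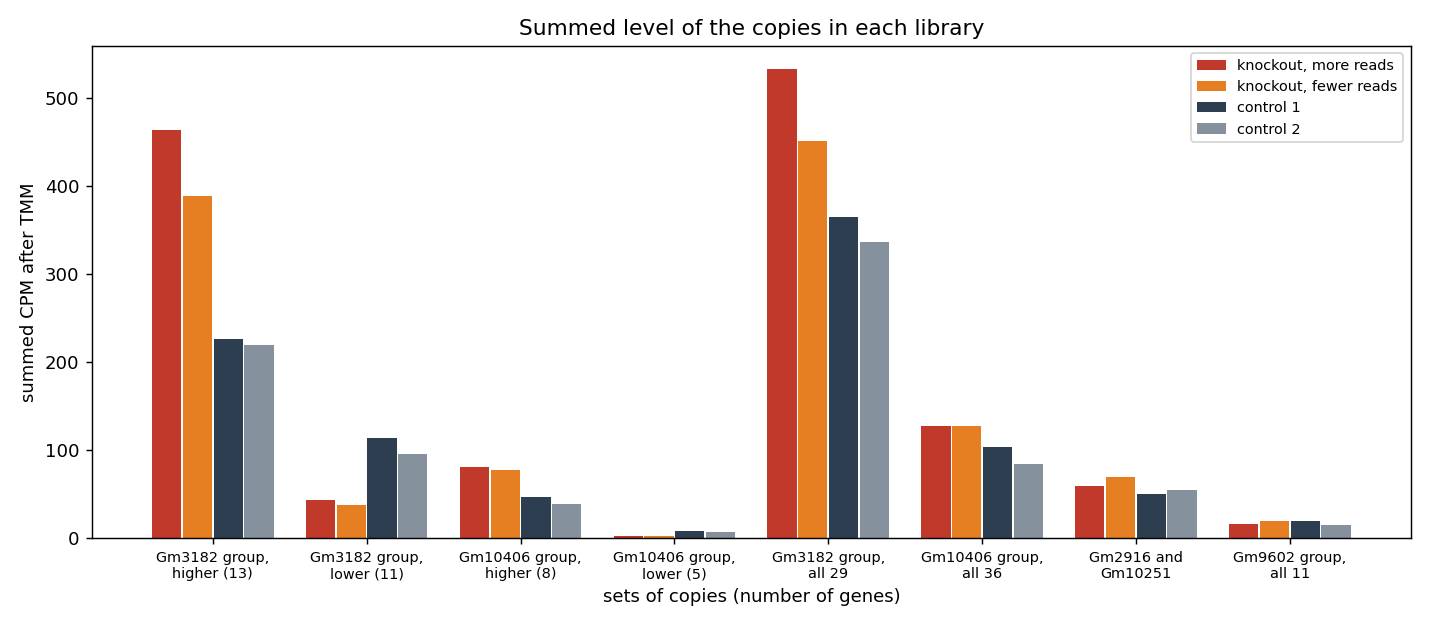
Summed CPM after TMM (y axis, from 0) of sets of copies (x axis) in each library, knockout libraries on the left. The whole *Gm3182* group lay at 533 and 451 CPM in knockout and 365 and 337 CPM in control, while the sets of higher and lower copies were picked by their direction.

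Higher and lower copies lay in mixed order along the chromosome. Among the 38 copies with an unadjusted p under 0.05, taken in order, the direction changed between 19 of 37 neighbouring pairs. Among all 78 copies, whatever their p, the sign of the fold change differed in 37 of 77 neighbouring pairs, and the longest run of 1 sign was 6 copies. In the band from 2.5 to 5 Mb, 7 members were higher and 10 lower of 33 (51.5%). In the band from 5 to 7.5 Mb 12 were higher and 6 lower of 41 (43.9%). Over all genes tested 3.57% were higher and 4.23% lower. No member starts below 2.5 Mb. In the 5 bands from 7.5 to 20 Mb, between 1 and 2 members a band were higher and between 0 and 2 lower. These bands held only 4 to 14 tested members each, so that their counts say little. Copies on the plus strand, which make up the first part of the block, counted 8 higher and 11 lower of 37. Those on the minus strand of the block, which make up nearly all of its second part, counted 13 higher and 5 lower of 39. Within the *Gm3182* group these counts were 6 higher and 7 lower of 14 on the plus strand, and 6 higher and 4 lower of 14 on the minus strand of the block. The difference between the strands was not tested, since copies are not replicates.

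How far the reads of the copies could be placed was read from the control libraries, as the unique reads of the knockout libraries could not be tied to a sample under the rules used here. The median unique share was 48.4% for the copies and 100% for the single-copy members. It was 90% or more in 39 members, of which 4 were copies, and 50% or less in 41 members, all of them copies. For 9 copies there was no unique read in control. Of the 38 tested members with 90% or more unique reads, 3 were higher and 6 lower (23.7%), and of the 41 with 50% or less, 12 were higher and 9 lower (51.2%). *Gm3182* had 1.11% and 0.0901% unique reads in the control libraries and *Gm8159* had 9.26% and 6.30%, so that almost all of their reads could also have come from another place. *Gm3453*, at 78.6% and 71.2%, and *Gm5458*, at 63.9% and 64.6%, were mostly unique and were higher as well. *Gm8362* was 81.2% and 84.0% unique.

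For the lower members the control data set a bound, chosen after the values were seen: the unique reads of a knockout library cannot exceed its total reads. Of the 20 lower members, 14 had more unique CPM in both control libraries than total CPM in either knockout library. With control counted by unique reads and knockout by total reads, 11 of the 20 kept an unadjusted p under 0.05. The 4 lower single-copy genes, with nearly all reads unique, met the bound through their total reads, so that it adds nothing for them. Of the 16 lower copies, 10 met it and 7 kept an unadjusted p under 0.05, and 2 of the 16 had 90% or more unique reads. All 16 were picked for being lower by total reads. Among those that met the bound, *Gm3005*, *Gm3029*, *Gm3127*, *Gm8237*, *Gm8362* and *Gm5797* had met the read minimum through control alone. For these, low totals in knockout were part of how they came in, so the bound is no independent test of their fall. For *Gm8362* the unique reads in control stood at 5.24 and 4.22 CPM, against total reads of 0.0988 and 0.209 CPM in knockout, and for *Gm3029* at 4.12 and 3.63 CPM against 0.198 and 0 CPM. For *Gm5797* they stood at 1.89 and 1.65 CPM, against 0.0988 and 0.209 CPM, and for *Gm3460* at 5.34 and 4.27 CPM, against 1.23 and 1.88 CPM. *Gm10413*, *Gm10409* and *Gm3012* had 0 unique reads in control, which leaves nothing to compare. No such bound can be had for the higher members.

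**Figure D4:**
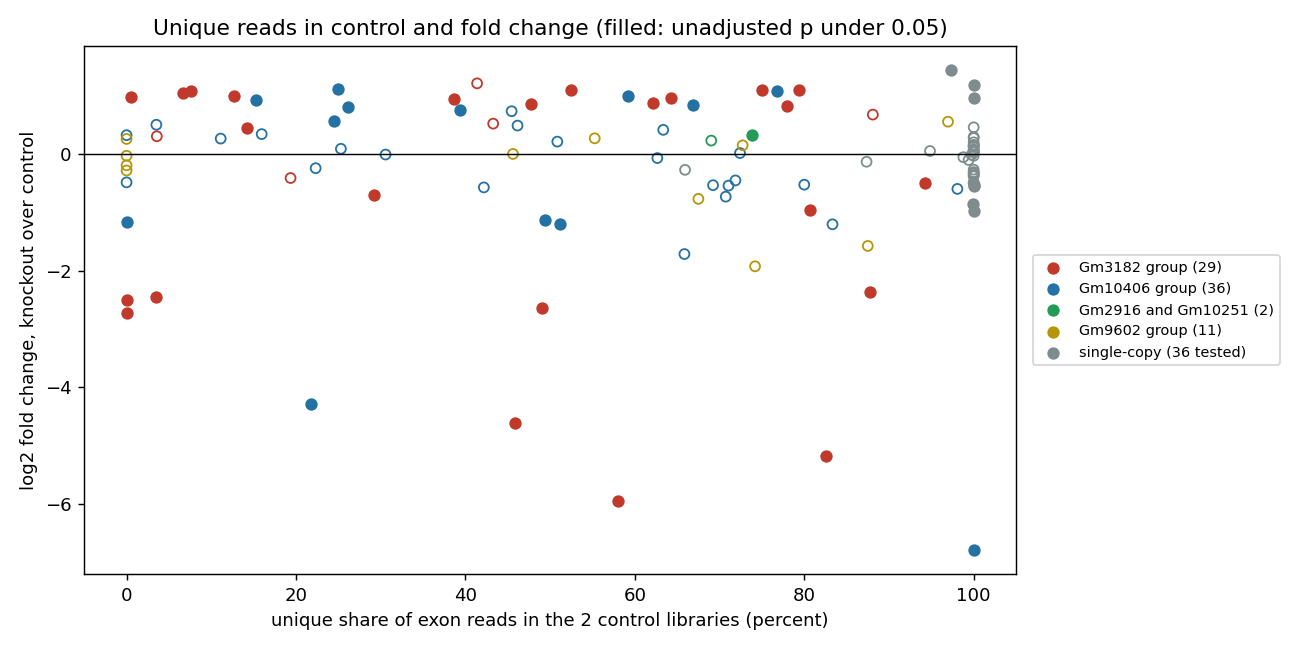
Log2 fold change of knockout over control (y axis) of the 114 members tested against the unique share of their exon reads in the control libraries (x axis, percent), with filled points for an unadjusted p under 0.05. Filled higher copies lie between 0.572% and 79.4% unique reads and filled lower copies between 0% and 100%, and the single-copy genes lie near 100%, apart from *Ube2e1* at 65.9% and *Thoc7* at 87.4%.

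Some copies can hardly be told apart by sequence. In 6 pairs at least 95% of the 31-base words of each gene occur in the other. *Gm10413* and *Gm3012* share 100% of their words, were both lower, and summed to 4.89 and 3.54 CPM in knockout and 29.5 and 22.2 CPM in control. *Gm3182* and *Gm7876* share 98.95%, yet *Gm3182* was higher and *Gm7876* lower, at 0.247 and 0.469 CPM in knockout and 3.06 and 0.929 CPM in control. The sum of the pair was 102 and 85.6 CPM in knockout and 50.9 and 47.8 CPM in control, set almost wholly by *Gm3182*. *Gm8246* and *Gm3424* summed to 13.3 and 12.7 CPM in knockout and 8.68 and 7.52 CPM in control. The pairs *Gm10409* and *Gm3020*, *Gm3542* and *Gm9603*, and *Gm6676* and *Gm16434* each summed to under 6 CPM in every library. How reads that fit several places were divided is not given in the sources used here, so the values of single copies in such a pair are uncertain. The regions of some copies also overlap another gene on the same strand. These include *Gm3182* with *Gm3173*, *Gm3373* with *Gm3383*, *Gm3029* with *Gm3002* and *Gm3005* with *Gm10409*. The part of such overlaps in their values was not tested.

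The single-copy members were steadier than the copies. Beside all genes tested they more often had an unadjusted p under 0.05 (19.4% against 7.79%, edgeR). Their median size of the log2 fold change was 0.26, against 0.141 over all genes. Of the 36 tested, 29 had a 95% interval that spanned 0, and none passed the adjusted threshold. Their fold changes lay between -0.96 and 1.45 on the log2 scale. None of the lists by role had a member past an adjusted p of 0.05, which 0.0947% of all genes tested passed. Among the 3 nuclear receptors, *Rarb*, which encodes a retinoic acid receptor, had 2.17 and 2.55 CPM in knockout testis and 0.922 and 0.803 CPM in control testis. Both knockout libraries were above both control libraries, with a log2 fold change of 1.45 (SE 0.34, unadjusted p = 0.00617 and adjusted p = 0.307, edgeR). It overlaps *Top2b* on the opposite strand, and nothing in the sources used here says that strand was used in counting. *Thrb*, a thyroid hormone receptor, overlapped at 1.23 and 3.49 CPM in knockout and 1.46 and 1.94 CPM in control. *Nr1d2*, a repressor of the circadian clock, differed little, at 24.4 and 25.2 CPM against 24.3 and 24.2 CPM, with a 95% interval of the log2 fold change from -0.24 to 0.31.

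Of the 4 genes listed under RNA processing and translation, *Rpl15*, which encodes a protein of the large ribosomal subunit, was lower. It had 124 and 108 CPM in knockout and 164 and 169 CPM in control, a log2 fold change of -0.52 (SE 0.11, adjusted p = 0.268, edgeR). Its reads in control were 100% unique, and it overlaps *Nkiras1* on the opposite strand. *Atxn7*, a subunit of the SAGA coactivator that fits this list only loosely, had 17.2 and 16.3 CPM in knockout and 19.8 and 22.3 CPM in control. Its unadjusted p was 0.0504 (edgeR). *Thoc7*, of the complex that couples transcription to mRNA export, had 58.7 and 56.1 CPM against 61.3 and 63.9 CPM, and *Rpp14*, a ribonuclease P subunit, 14.02 and 13.4 CPM against 12.9 and 10.9 CPM. Neither *Thoc7* nor *Rpp14* passed an unadjusted p of 0.05.

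In the list of cytoskeleton, matrix and adhesion, *Nid2*, a nidogen of basement membranes, had 9.04 and 11.1 CPM in knockout testis and 19.1 and 17.4 CPM in control testis. Its log2 fold change was -0.85 (SE 0.17, adjusted p = 0.211, edgeR), and DESeq2 called it. It overlaps *Rtraf* on the opposite strand. *Cadps*, a priming factor for dense-core vesicle release that fits this list only loosely, was higher. It had 4.30 and 8.45 CPM in knockout and 2.72 and 2.87 CPM in control, with the knockout libraries far apart. *Il3ra*, the alpha chain of the interleukin-3 receptor, had 15.7 and 16.7 CPM in knockout and 23.7 CPM in both control libraries. *Dnase1l3*, a secreted DNase, had 1.09 and 1.46 CPM in knockout and 2.47 and 2.49 CPM in control. *Olfr31*, an olfactory receptor gene, had 2.47 and 3.65 CPM in knockout and 1.46 and 1.65 CPM in control. *Il3ra* was the 1 gene past an unadjusted p of 0.05 among the 4 measured signalling genes, and *Dnase1l3* among the 2 of transport and nuclease, while the cilium gene *Nek10* and *Fam107a* did not pass it. Over all genes tested 7.79% passed it, and lists this short cannot be set against that share. None of *Nid2*, *Cadps*, *Il3ra*, *Dnase1l3* and *Olfr31* overlapped between the genotypes, which held for 37.1% of all genes tested, and none passed the adjusted threshold. Each had an unadjusted p under 0.05, and no single-copy member with such a p overlapped, so the lack of overlap adds nothing to it.

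The 5 genes of ubiquitin and protein turnover and the 4 measured genes of metabolism held no member with an unadjusted p under 0.05. The share over all genes tested was 7.79%, so that finding none in lists this short says nothing about them. *Ngly1*, which removes N-glycans from misfolded proteins, was the most abundant member by reads, at 327 and 273 CPM in knockout and 275 and 267 CPM in control. *Pdhb*, the beta chain of the E1 enzyme of pyruvate dehydrogenase, had 257 and 220 CPM in knockout and 199.6 and 193 CPM in control, with an unadjusted p of 0.062. Per kb of exon it had the highest level of all members, at 158 CPM per kb in knockout and 130 in control. The proteasome gene *Psmd6* had 88.3 and 84.3 CPM against 81.2 and 81.5 CPM, and *Top2b*, which encodes topoisomerase II beta, 41.5 and 50.5 CPM against 50.7 and 47.4 CPM. *Rtraf*, a factor of the tRNA ligase complex, had 126 and 118 CPM against 127 and 125 CPM. *Slc4a7*, a sodium bicarbonate cotransporter, had 79.9 and 82.6 CPM against 73.1 and 75.2 CPM, a log2 fold change of 0.13 (95% interval -0.10 to 0.36).

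**Figure D5:**
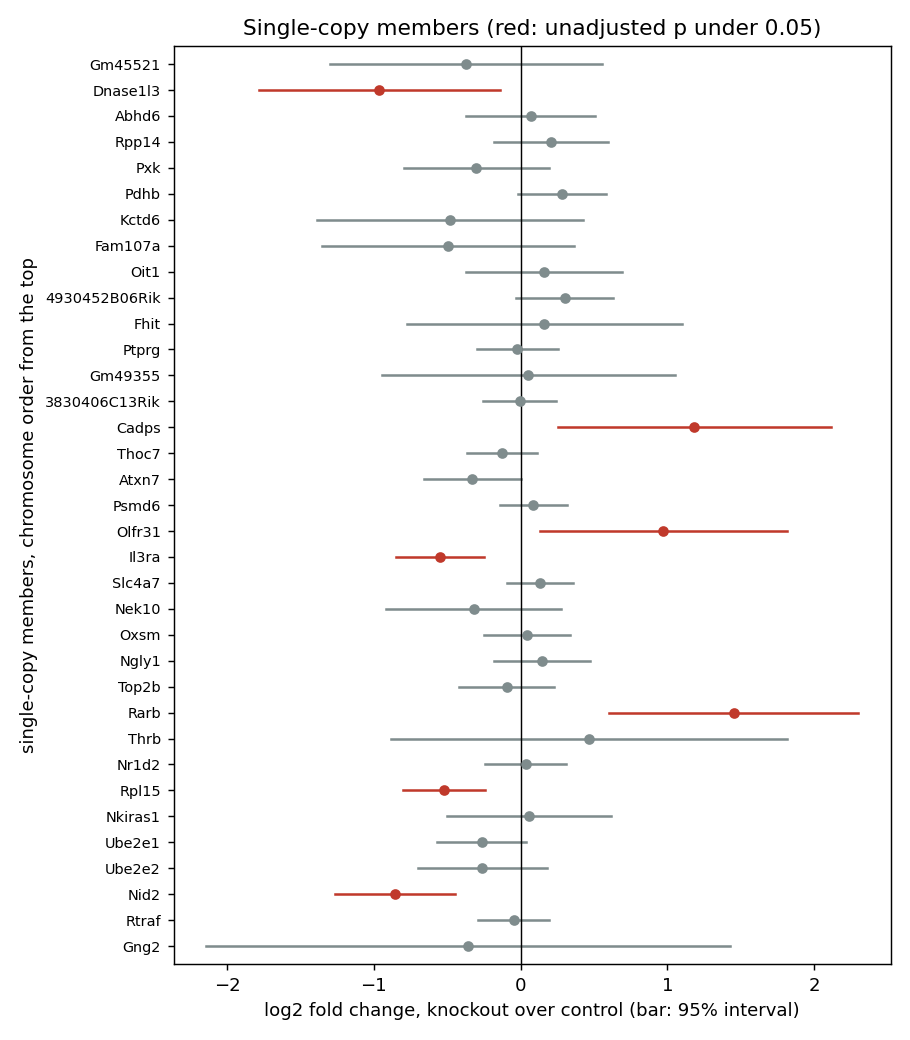
Log2 fold change of knockout over control (x axis) with its 95% interval (bars) for 35 single-copy members tested, in chromosome order from the top. The intervals of 28 genes span 0, and those of *Rarb*, *Cadps* and *Olfr31* lie above it and those of *Dnase1l3*, *Il3ra*, *Rpl15* and *Nid2* below it.

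The limits of the rule ran through low values. Just inside the read minimum lay *Gm3642*, with 1 and 6 reads in knockout and 10 and 21 in control, and *Gm11100*, with 10 and 3 reads in knockout and 11 and 4 in control, the member that edgeR's filter left untested. Just outside lay *Gm16440*, with 9 and 8 reads in knockout and 12 and 3 in control. Of the 48 rows of the window without the minimum, 18 had 0 reads in every library. The last member by start was *Gng2*, and the next gene beyond 20 Mb with enough reads was *Saysd1*, with a log2 fold change of 0.20. Of the 115 members, 11 met the minimum through control alone, all of them copies, and 0 through knockout alone.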

How the data were processed

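Poly(A) RNA of 4 testis libraries was sequenced, trimmed, aligned to GRCm38 (mm10) and counted over exons by the authors in CLC Genomics Workbench, and how reads that fit several places were divided is not given in the sources used here. The deposited counts are whole numbers of total and unique exon reads per gene for 25683 genes. The table has 67 columns that belong to single libraries, and 60 of them stayed unused, among them RPKM, TPM and the unique reads of the knockout libraries. Their headings do not tie them to a sample, and the rules used here allow each knockout library only 1 column, so that the planned fit on unique reads was not run. The table also holds the authors' own fold changes and p-values, which were not used.

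Genotypes were compared by the quasi-likelihood test of edgeR 4.0.16 in R 4.3.3, after filterByExpr with a minimum of 10 counts, which kept 15834 genes, and TMM scaling. Benjamini-Hochberg adjustment ran over every gene kept, and 0.05 was the threshold. Standard errors were derived from the F statistic, and intervals are at 95%. At 18103863 to 23503503 reads per library, the biological coefficient of variation was 15.3%. CPM are counts scaled to library size after TMM and are not scaled by length unless given per kb. The procedure was tested on simulated data.

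Shared 31-base words and exon sequences were read from GENCODE M21 with Python 3.11.15, and copies were grouped by average linkage with scipy 1.17.1. Figures were drawn with matplotlib 3.10.9. Genes named are members past the threshold, up to 12 in each direction with the smallest p among members whose libraries do not overlap, the 8 with the highest mean CPM, genes of the role lists, *Parp1* and *Parg*, with others, such as the pairs of copies and the remaining single-copy genes, picked after their values were seen. Marker lists of germ cells, Sertoli, Leydig and peritubular cells, macrophages, epididymis, red blood cells and adipose tissue were summed. Results of 1 single-copy member are not reported here. The members and lists were chosen with earlier results of these data known. The count at an unadjusted p of 0.05, the share of words that makes a copy, the sequence groups and the bound for lower members were chosen after the values were seen. Alternatives were DESeq2 1.42.0, edgeR's likelihood ratio test, limma voom (limma 3.58.1), RLE, upper quartile and no TMM scaling, other filters and windows, a threshold of 0.1 and leaving out each library.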

Additional observations from a re-analysis of the deposited data

How the results depend on the processing

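With 15 genes and 1 member called at an adjusted p of 0.05 by edgeR's quasi-likelihood test, DESeq2 called 193 genes and 16 members, the likelihood ratio test 374 and 24, library size alone 41 and 7, no filter 52 and 7, and a threshold of 0.1 53 and 7. Upper quartile scaling called 17 genes (0.107%) and 2 members. Limma voom and 10 counts in every library called 0 members, and at an unadjusted p of 0.05 they gave 25 and 26 higher and 21 and 13 lower members. Leaving out 1 library gave 8 to 3890 genes and 0 to 47 members called. The high counts came without a knockout library, where the lone knockout library is taken to vary like control: 47 members and 23.9% of all genes without the one with more reads, and 40 and 17% without the one with fewer. Without either control library 0 members were called. The counts at an unadjusted p of 0.05 ranged from 13 to 34 higher and 9 to 25 lower members with 1 library left out, against 34% of all genes when the deeper knockout library was dropped, 26.8% when the shallower was, and 2.71% and 3.03% without control replicates 1 and 2. Among members with 90% or more unique reads in control they were 3 and 6, and with control by unique reads 11 members were lower. These counts, as alternatives, were added after seeing the data. Called members kept their number of 1 with 20 reads in 2 libraries and with windows of 10 and 30 Mb.

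Of the values of named genes under an alternative, 509 kept their direction and side of the threshold, 105 newly passed it, 5 lost it and 9 changed sign. The changes of sign all came from leaving out a library. With 1 library left out, the log2 fold changes of these genes ranged from -0.09 to 0 for *Rtraf*, -0.08 to 0.06 for *3830406C13Rik*, -0.46 to 1.03 for *Thrb*, -0.24 to 0.04 for *Top2b*, -0.16 to 0.27 for *Abhd6*, -0.01 to 0.1 for *Oxsm*, -0.17 to 0.26 for *Nkiras1* and -1.01 to 1 for *Gng2*. The cause was not tested. No paired analysis was possible because the knockout columns share 1 number.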
